A study of Mus musculus with 19 samples.

Results

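The gluconeogenesis genes described here were *Pck1*, *Pck2*, *G6pc*, *Fbp1*, *Pcx* and *Slc37a4*. They were set by name and were matched by symbol to the Ensembl gene identifiers of the deposited gene tables; all 6 were found among 55487 genes. The libraries, 1 per mouse, came from crypts of the small intestine, its most distal part left out, of 19 adult C57BL/6 mice of both sexes. The study compared wild-type mice (NT+/+) with mice lacking neurotensin (NT-/-), a peptide hormone of enteroendocrine cells, and asked how nutrient state changes the crypts. Groups were NT+/+ fed ad libitum (n = 5), NT-/- fed ad libitum (n = 4), NT+/+ fasted for 48 hours (n = 5) and NT-/- fasted for 48 hours (n = 5). Fasted mice had free access to water, and ad libitum mice ate standard chow. The methods describe both plain lines and lines carrying Lgr5-EGFP-IRES-CreERT2, a reporter and inducible Cre in the stem cell gene *Lgr5*, and the labels do not say which gave these libraries. Neurotensin was absent from the whole animal in NT-/- mice, so that effects on the crypt and on the rest of the body cannot be told apart. Replicate 5 of the fasted NT+/+ group carries a title of NT+/+ and another label of NT -/-; it was grouped by its title.

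Gluconeogenesis makes new glucose from lactate, amino acids and glycerol, and is best known in liver and kidney cortex during fasting. It shares the reversible enzymes of glycolysis and bypasses the irreversible ones: pyruvate carboxylase (*Pcx*) makes oxaloacetate in mitochondria, phosphoenolpyruvate carboxykinase (PEPCK; *Pck1* in the cytosol, *Pck2* in mitochondria) makes phosphoenolpyruvate, fructose-1,6-bisphosphatase (*Fbp1*) makes fructose 6-phosphate, and glucose-6-phosphatase (*G6pc*) releases glucose in the endoplasmic reticulum from glucose 6-phosphate that the carrier *Slc37a4* brings in. The small intestine of rodents is also known to express the pathway, mainly in absorptive cells.

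Expected counts on genes ranged from 9059457 to 35068711 per mouse (median 18541819), and the 2 lowest mice were both fasted NT-/- mice. *Nts*, the neurotensin gene, ranged from 4.98 to 8.59 CPM (counts scaled to library size after TMM, a correction for library composition) over the NT+/+ mice and from 0.144 to 0.793 CPM over the NT-/- mice, and the mouse with disagreeing labels was in the former range. Markers of the crypt were present: the 6 stem cell markers summed to between 1457 and 3478 CPM and the 6 Paneth cell markers to between 17579 and 42357 CPM over the groups. Of 5 hepatocyte markers, *Alb*, *Apoa2* and *Serpina1a* were under 1 CPM in every mouse and *Ttr* and *Cyp2e1* were not. The list summed to between 2.45 and 8.82 CPM, with medians of 2.97 fed and 5.27 fasted in NT+/+ mice and 6.01 and 6.48 in NT-/- mice, and *Ttr* was called higher with fasting in NT+/+ mice (log2 fold change 1.00, adjusted p = 0.00862, edgeR). The 5 adipocyte markers summed to at most 0.32 CPM. All 12 enterocyte markers were present too, and they moved with fasting, as described with the results. In bulk RNA, fewer cells of a type and less RNA per cell cannot be told apart.

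Per unit of transcript length, the members of fed crypts lay close together. In NT+/+ ad libitum mice, *Slc37a4* had 20.4 ± 2.43 TPM (the length-scaled transcript level that RSEM gives; SD, n = 5), *Pck2* 16.9 ± 1.70, *Fbp1* 13.4 ± 3.77, *Pck1* 11.4 ± 6.12, *G6pc* 7.07 ± 3.29 and *Pcx* 6.59 ± 1.53. Each gene overlapped in range with the next in that order. The order was the same in NT-/- ad libitum mice, from 22.4 ± 2.32 TPM for *Slc37a4* to 7.22 ± 1.53 for *Pcx* (SD, n = 4), where the ranges of *Slc37a4* and *Pck2* did not overlap. After fasting, *Pck1* had the highest mean in both genotypes, *Fbp1* was next and *Pcx* the lowest. In NT+/+ fasted mice these were 145.0 ± 174.6 TPM for *Pck1*, 45.9 ± 10.7 for *Fbp1*, 36.5 ± 8.69 for *Slc37a4*, 22.0 ± 1.84 for *Pck2*, 21.1 ± 10.4 for *G6pc* and 4.56 ± 1.37 for *Pcx* (SD, n = 5). Here *Pck1* overlapped *Fbp1*, *Fbp1* overlapped *Slc37a4*, and *Pck2* overlapped *G6pc*. In NT-/- fasted mice the means were 210.0 ± 125.2 TPM for *Pck1*, 72.7 ± 15.6 for *Fbp1*, 51.1 ± 8.19 for *Slc37a4*, 39.5 ± 16.4 for *G6pc*, 19.7 ± 2.08 for *Pck2* and 6.82 ± 1.90 for *Pcx* (SD, n = 5). *Pck1* was above *Fbp1* in all 5 of these mice with no overlap, and the other neighbors overlapped except *Pck2* and *Pcx*.

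Fasting raised 5 of the 6 genes in NT+/+ mice and 4 of the 6 in NT-/- mice, and lowered none of them past the test (edgeR's quasi-likelihood test, adjusted p under 0.05 over 17875 genes). Of all genes tested, 11.2% were called higher and 10.4% lower with fasting in NT+/+ mice, and 12.5% higher and 12.6% lower in NT-/- mice. The median log2 fold change of the members was 1.28 in NT+/+ mice and 1.78 in NT-/- mice, beside -0.01 and -0.02 over all genes tested. *Pck1*, *G6pc*, *Fbp1* and *Slc37a4* rose in both genotypes, *Pck2* in NT+/+ mice, and *Pcx* in neither.

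*Pck1* (ENSMUSG00000027513; GRCm38 chromosome 2, 173153048 to 173159273, plus strand), the cytosolic PEPCK often used as the marker of the gluconeogenic state, changed most. Its values in replicates 1 to 5 of the ad libitum NT+/+ group were 18.4, 31.8, 20.5, 38.1 and 10.4 CPM, and in replicates 1 to 4 of the ad libitum NT-/- group they were 32.5, 32.8, 20.2 and 19.3 CPM. After fasting they were 61.9, 66.1, 972, 414 and 85.7 CPM in NT+/+ mice and 405, 210.5, 920.2, 368 and 416 CPM in NT-/- mice. Every fasted mouse was above every ad libitum mouse. The fasted NT+/+ mice fell far apart, with 3 below 100 CPM and 2 above 400, whereas all fasted NT-/- mice were above 200. The log2 fold change with fasting was 3.74 in NT+/+ mice (SE 0.68, adjusted p = 0.00062, edgeR) and 4.14 in NT-/- mice (SE 0.76, adjusted p = 0.000542, edgeR). Without replicate 3, the highest fasted NT+/+ mouse, the first of these was 2.72 (adjusted p = 0.00166, edgeR).

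*Pck2* (ENSMUSG00000040618; chromosome 14, 55540266 to 55551242, plus strand), the mitochondrial PEPCK, moved little. It was 36.5, 35.5, 37.4, 34.7 and 39.2 CPM in ad libitum NT+/+ mice and 45.7, 36.9, 42.5 and 36.6 CPM in ad libitum NT-/- mice. After fasting it was 50.8, 46.8, 46.7, 41.1 and 57.6 CPM in NT+/+ mice and 47.5, 37.8, 38.6, 47.4 and 46.6 CPM in NT-/- mice. The NT+/+ groups did not overlap and the NT-/- groups did. The log2 fold change with fasting was 0.41 in NT+/+ mice (SE 0.09, adjusted p = 0.00365, edgeR) and 0.11 in NT-/- mice (SE 0.10, adjusted p = 0.463, edgeR). The difference between these effects was -0.30 (SE 0.13) and had an adjusted p of 1.00 (edgeR, interaction term), so that an effect in 1 genotype alone was not shown.

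*G6pc* (ENSMUSG00000078650; chromosome 11, 101367561 to 101377903, plus strand), the catalytic subunit that frees glucose, was 4.17, 15.3, 14.9, 20.8 and 15.9 CPM in ad libitum NT+/+ mice and 19.5, 9.25, 15.1 and 20.3 CPM in ad libitum NT-/- mice. After fasting it was 27.9, 46.0, 59.5, 68.0 and 20.7 CPM in NT+/+ mice and 58.3, 88.1, 116, 104 and 43.4 CPM in NT-/- mice. The lowest fasted NT+/+ mouse lay just under the highest ad libitum NT+/+ mouse, and the NT-/- groups did not overlap. The log2 fold change was 1.65 in NT+/+ mice (SE 0.37, adjusted p = 0.00356, edgeR) and 2.34 in NT-/- mice (SE 0.41, adjusted p = 0.000343, edgeR).

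*Fbp1* (ENSMUSG00000069805; chromosome 13, 62864753 to 62888282, minus strand), the bypass of phosphofructokinase, had the smallest p of the 6 genes in both genotypes. It was 11.8, 16.7, 12.4, 18.5 and 18.3 CPM in ad libitum NT+/+ mice and 19.6, 14.2, 17.7 and 20.9 CPM in ad libitum NT-/- mice. After fasting it was 52.4, 63.7, 47.7, 66.3 and 53.5 CPM in NT+/+ mice and 83.8, 72.8, 89.6, 104 and 86.8 CPM in NT-/- mice. Here the 2 fasted groups did not overlap with the fed groups or with each other. The log2 fold change with fasting was 1.87 in NT+/+ mice (SE 0.14, adjusted p = 2.47e-08, edgeR) and 2.27 in NT-/- mice (SE 0.15, adjusted p = 6.79e-09, edgeR).

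*Slc37a4* (ENSMUSG00000032114; chromosome 9, 44396852 to 44402968, plus strand), the glucose 6-phosphate carrier, was 29.6, 30.8, 36.4, 31.8 and 31.1 CPM in ad libitum NT+/+ mice and 40.7, 35.1, 32.1 and 32.4 CPM in ad libitum NT-/- mice. After fasting it was 51.2, 61.7, 68.7, 72.9 and 45.3 CPM in NT+/+ mice and 79.3, 77.7, 105, 80.9 and 83.5 CPM in NT-/- mice. The fasted groups again lay above the fed groups, and the fasted NT-/- mice above the fasted NT+/+ mice, with no overlap. The log2 fold change with fasting was 0.91 in NT+/+ mice (SE 0.12, adjusted p = 2.34e-05, edgeR) and 1.28 in NT-/- mice (SE 0.13, adjusted p = 1.07e-06, edgeR).

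*Pcx* (ENSMUSG00000024892; chromosome 19, 4510472 to 4621752, plus strand), which feeds oxaloacetate to the pathway and to the tricarboxylic acid cycle, was the member with values below 0 on the log2 scale in both fasting comparisons. It was 20.9, 22.6, 21.4, 21.2 and 16.9 CPM in ad libitum NT+/+ mice and 27.8, 22.2, 18.8 and 21.8 CPM in ad libitum NT-/- mice. After fasting it was 11.8, 18.3, 22.7, 16.5 and 13.2 CPM in NT+/+ mice and 16.4, 25.5, 18.8, 19.7 and 22.7 CPM in NT-/- mice. All groups overlapped. The log2 fold change was -0.32 in NT+/+ mice (SE 0.16, adjusted p = 0.157, edgeR) and -0.14 in NT-/- mice (SE 0.17, adjusted p = 0.584, edgeR). Without replicate 3 of the fasted NT+/+ group, *Pcx* was called lower in NT+/+ mice (log2 fold change -0.47, adjusted p = 0.0345, edgeR).

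**Figure D1:**
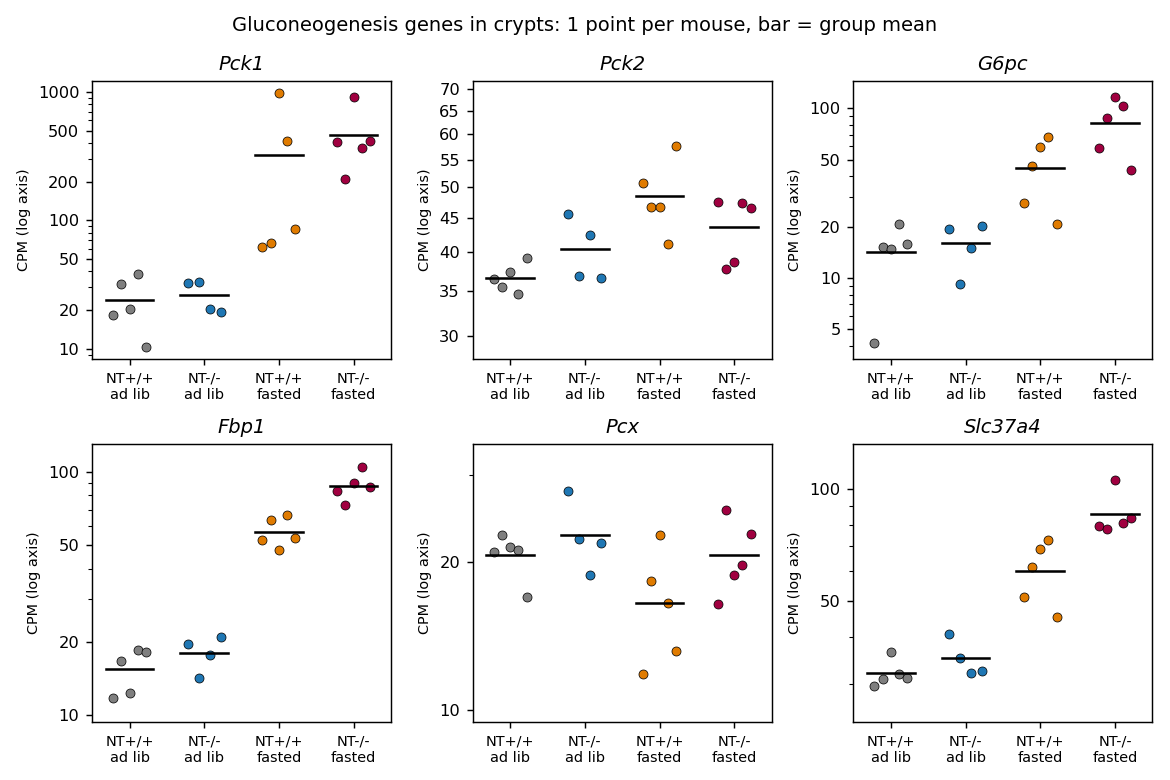
CPM of each gene on a log axis, with 1 point per mouse, the 4 groups along the horizontal axis and a bar at the group mean. *Pck1*, *G6pc*, *Fbp1* and *Slc37a4* are higher in the fasted groups, *Pck1* spreads from 61.9 to 972 CPM among fasted NT+/+ mice, and the groups of *Pcx* overlap.

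In NT+/+ mice, 4 members (*Pck1*, *Pck2*, *Fbp1* and *Slc37a4*) had every fasted mouse above every ad libitum mouse, as did 7.63% of all genes tested. In NT-/- mice, 4 members did (*Pck1*, *G6pc*, *Fbp1* and *Slc37a4*), as did 10.5% of all genes tested. The members also differed in their spread between mice. The coefficient of variation of *Pck1* was 46.3% fed and 123% fasted in NT+/+ mice, and 28.4% and 57.8% in NT-/- mice. That of *G6pc* was similar in fed and fasted mice, at 42.9% and 45.4% in NT+/+ and 31.6% and 37.3% in NT-/- mice. Fasted mice of both genotypes had between 11.3% and 26.2% for the other members.

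The balance of the PEPCK genes turned over with fasting. In TPM, which allows a comparison between genes, *Pck1* exceeded *Pck2* in 1 of 5 ad libitum NT+/+ mice and 0 of 4 ad libitum NT-/- mice, with a median ratio of 0.525 and 0.643. After fasting it exceeded *Pck2* in all 5 NT+/+ mice, at ratios between 1.14 and 20.4 with a median of 1.49. It did so in all 5 fasted NT-/- mice too, at ratios between 5.79 and 24.3 with a median of 8.32. *Pck2* itself stayed between 14.7 and 24.2 TPM over all mice.

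**Figure D2:**
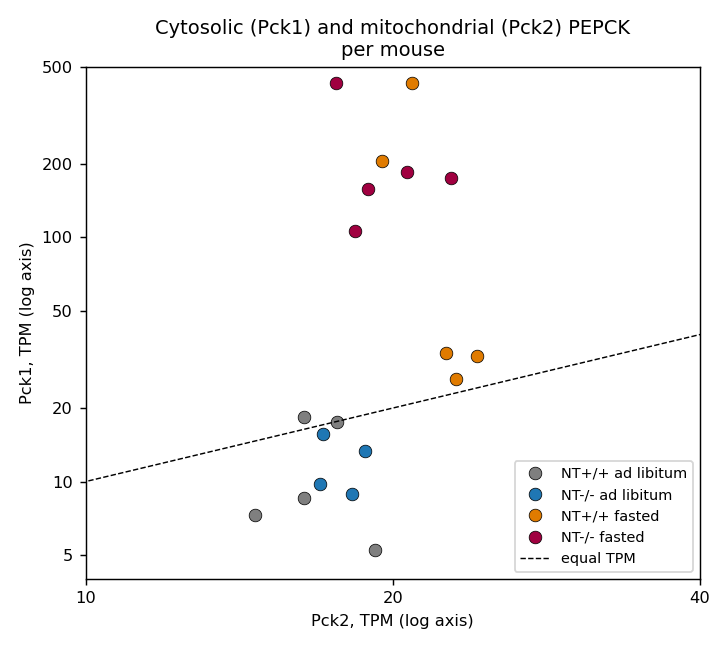
*Pck1* against *Pck2* in TPM, both on log axes, with 1 point per mouse colored by group and a dashed line at equal TPM. All 10 fasted mice lie above the line and 8 of the 9 ad libitum mice lie below it, while *Pck2* covers the narrow range of 14.7 to 24.2 TPM.

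The sequence before the RefSeq start is shown for *Pck1*, *G6pc* and *Fbp1*, which rose with fasting in both genotypes, with *Pck2* for comparison. *Slc37a4* also rose in both, has 3 RefSeq starts and is described below without its sequence. *Pck1*, *Pck2*, *G6pc* and *Fbp1* have a single start in RefSeq, and the 250 bases before it are given on the gene's own strand, 5′ to 3′, from RefSeq's GRCm38.p6. *Pck1* is at chr2:173152823-173153072, *Pck2* at chr14:55540016-55540265 and *G6pc* at chr11:101367466-101367715, all on the plus strand, and *Fbp1* is at chr13:62888283-62888532 on the minus strand. The gene coordinates given earlier are from GENCODE. Their starts of *Pck1* (173153048) and *G6pc* (101367561) lie inside these windows, so part of each window is within the GENCODE gene. Capitals mark matches, on either strand, to 9 short motifs, which do not overlap each other here. They were the CREB motif (core letters TGACG), the FOXO motif (TGTTTAC), the insulin response core (letters TGTTTTG), the HNF1 motif (letters GTTAAT), the nuclear receptor motif (letters AGGTCA), the glucocorticoid receptor motif (letters TGTTCT), the C/EBP motif (letters TTGCGCAA), the TATA box (searched as TATAAA) and the box bound by NF-Y (searched as CCAAT).
Pck1: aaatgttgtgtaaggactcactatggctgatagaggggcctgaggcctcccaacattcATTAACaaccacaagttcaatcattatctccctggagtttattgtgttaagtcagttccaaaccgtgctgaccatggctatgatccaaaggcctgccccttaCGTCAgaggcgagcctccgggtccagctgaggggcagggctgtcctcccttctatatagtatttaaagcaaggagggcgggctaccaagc
Pck2: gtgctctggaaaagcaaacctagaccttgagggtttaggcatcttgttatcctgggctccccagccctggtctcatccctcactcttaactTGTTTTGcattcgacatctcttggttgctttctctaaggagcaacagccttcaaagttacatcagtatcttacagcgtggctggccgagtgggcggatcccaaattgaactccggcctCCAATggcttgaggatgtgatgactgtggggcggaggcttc
G6pc: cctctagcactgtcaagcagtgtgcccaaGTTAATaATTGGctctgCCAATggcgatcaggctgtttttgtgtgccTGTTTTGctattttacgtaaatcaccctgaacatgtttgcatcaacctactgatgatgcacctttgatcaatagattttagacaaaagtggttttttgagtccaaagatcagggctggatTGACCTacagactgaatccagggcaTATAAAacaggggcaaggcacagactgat
Fbp1: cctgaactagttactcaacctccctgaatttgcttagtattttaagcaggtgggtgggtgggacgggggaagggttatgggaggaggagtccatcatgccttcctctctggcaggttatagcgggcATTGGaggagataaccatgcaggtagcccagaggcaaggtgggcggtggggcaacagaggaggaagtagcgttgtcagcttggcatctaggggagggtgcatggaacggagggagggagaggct

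*Pck1* held a CREB motif on the minus strand, 90 to 86 bases before its start, and an HNF1 motif 192 to 187 bases before it. *G6pc* held a TATA box 29 to 24 bases before its start, a nuclear receptor motif, an HNF1 motif, an insulin response core 174 to 168 bases before the start and 2 CCAAT boxes. *Pck2* held an insulin response core 159 to 153 bases before its start and a CCAAT box, and *Fbp1* only a CCAAT box. *Slc37a4*, which RefSeq gives 3 starts, held a CREB motif upstream of 2 of them, a nuclear receptor motif upstream of 1 of these and a TATA box upstream of the other start. The windows of those 2 starts overlap and share 1 CREB match, 61 to 57 bases before start 1 and 214 to 210 before start 2. Start 2 had another CREB match, 82 to 78 bases before it. *Pcx*, with 2 starts, held 3 CCAAT boxes upstream of 1. Of 32851 windows of the same length before RefSeq starts, 17.8% held a CREB motif, 3.17% the FOXO motif, 5.56% the insulin response core, 6.43% an HNF1 motif, 14.0% the nuclear receptor motif, 16.1% the glucocorticoid receptor motif, 0.164% the C/EBP motif, 12.4% a TATA box and 33.8% a CCAAT box. A match describes the letters of this window and is neither a binding site nor a cause. No motif was shared by all 3 of *Pck1*, *G6pc* and *Fbp1*, as *Fbp1* held only a CCAAT box and *Pck1* held no such box. Whether these genes share a regulator was not tested.

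Enterocyte markers rose beside the members. Of 12 markers, among them the brush border enzymes *Alpi* and *Anpep* and the lipid carriers *Fabp1* and *Apoa1*, 10 were called higher with fasting in NT+/+ mice (median log2 fold change of the list, 0.97) and all 12 in NT-/- mice (median 1.36). None was at 0. Their summed level ranged from 6503 to 13894 CPM in ad libitum NT+/+ mice, 9963 to 14886 in ad libitum NT-/- mice, 13810 to 26286 in fasted NT+/+ mice and 23003 to 32163 in fasted NT-/- mice. Of 5 markers of dividing cells, 3 were called lower in NT+/+ mice and 4 in NT-/- mice. The part of these shifts in the members' changes was not tested.

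Divided by the summed enterocyte markers of the same mouse, a scaling chosen after the data were seen, the members parted. The markers themselves did not rise alike with fasting in NT+/+ mice. Their log2 fold changes ran from 0.35 for *Sis* and 0.45 for *Lct*, neither called, to 2.09 for *Fabp1*. A plain sum gives abundant markers more weight, so this scale is not a measure of enterocyte number alone. *Fbp1* was 1.41 ± 0.255 CPM per 1000 CPM of markers in ad libitum NT+/+ mice (SD, n = 5) and 2.81 ± 0.739 in fasted NT+/+ mice (SD, n = 5), and 1.503 ± 0.181 (SD, n = 4) and 3.11 ± 0.631 (SD, n = 5) in NT-/- mice. These groups did not overlap between diets, but in NT+/+ mice the highest fed value was 1.81 and the lowest fasted value 1.83. *Pck1* had medians of 2.63 fed and 5.14 fasted in NT+/+ mice, and of 2.20 and 13.6 in NT-/- mice. Its NT-/- ranges did not overlap, and its NT+/+ ranges did by a narrow margin (highest fed 2.83, lowest fasted 2.79). With fasting in NT+/+ mice, mean log2 values on this scale differed by 2.06 for *Pck1* and 0.98 for *Fbp1*. *G6pc* had medians of 1.26 and 2.02 in NT+/+ mice and 1.39 and 2.74 in NT-/- mice, with overlap in both. *Slc37a4* overlapped in both genotypes, with means of 3.01 ± 0.946 and 2.89 ± 0.462 in NT+/+ mice (SD, n = 5 each). *Pck2*, called higher by CPM in NT+/+ mice, had lower medians after fasting on this scale, 3.02 and 1.97 in NT+/+ mice with overlap and 3.49 and 1.53 in NT-/- mice without. *Pcx* had medians of 1.87 and 0.789 in NT+/+ mice and 1.96 and 0.721 in NT-/- mice, with every fasted mouse below every ad libitum mouse of its genotype. Since the divisor rose with fasting, 32.3% of all genes tested were likewise lower in every fasted NT+/+ mouse and 73.0% in every fasted NT-/- mouse. On this scale 1 member in NT+/+ mice and 2 in NT-/- mice had every fasted mouse above every ad libitum mouse, beside 0.408% and 0.515% of all genes tested. The NT+/+ count rests on the narrow margins of *Fbp1* and *Pck1*.

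**Figure D3:**
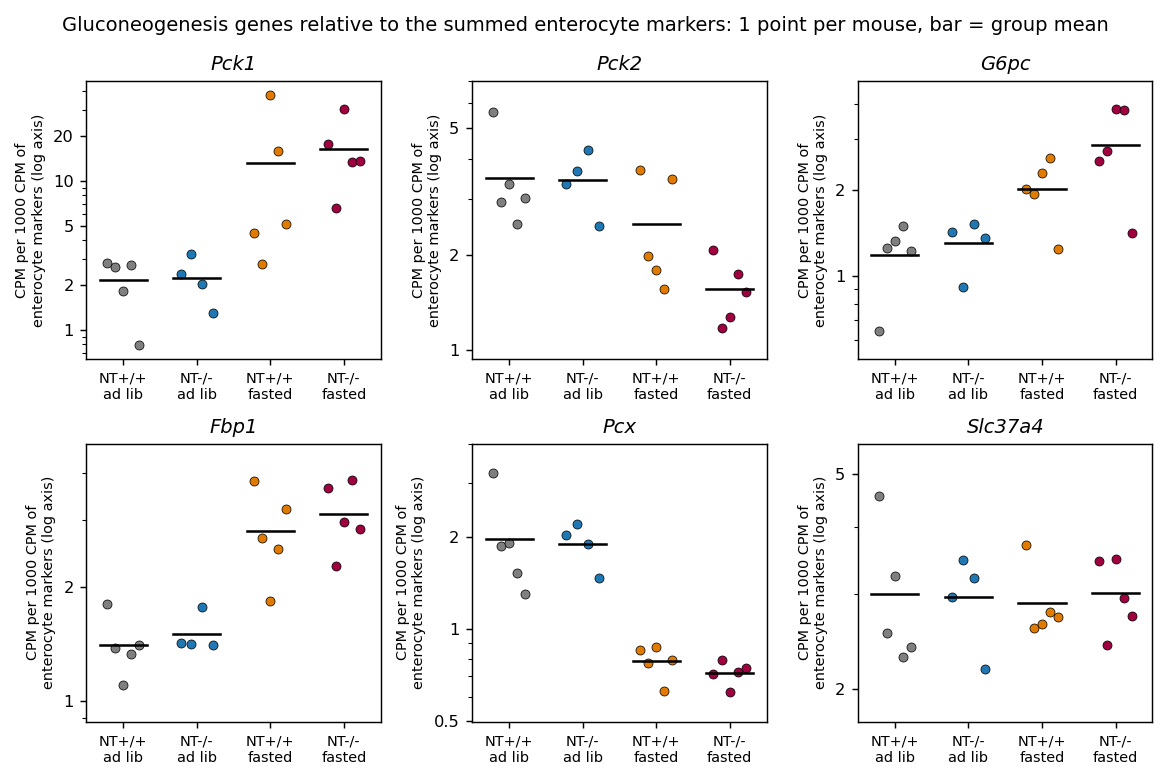
CPM of each gene per 1000 CPM of the 12 summed enterocyte markers of the same mouse, on a log axis, with 1 point per mouse and a bar at the group mean. *Fbp1* stays higher in fasted mice, *Slc37a4* has means of 3.01 and 2.89 in fed and fasted NT+/+ mice, and *Pcx* is below its fed range in all fasted mice, as are 32.3% of all genes in NT+/+ and 73.0% in NT-/- mice.

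Between genotypes, none of the 6 genes was called in ad libitum mice (edgeR), beside 0.00559% of all genes tested. None had an unadjusted p under 0.05 (edgeR), beside 299 of all 17875 genes. DESeq2 called 0 of the 6 as well, beside 1 gene higher and 3 lower among 34533. Their log2 fold changes in NT-/- against NT+/+ ad libitum mice were all between 0.14 and 0.22, with a median of 0.14, beside -0.001 over all genes tested. In fasted mice 0 were called as well by edgeR, again beside 0.00559% of all genes, with 3 at an unadjusted p under 0.05 (9.14% of all genes) and 2 called by DESeq2 (0.792% of the 12498 genes it adjusted over). The fasted NT-/- mice had the higher mean CPM for 5 of the 6 genes. The members' median log2 fold change was 0.52, beside -0.01 over all genes tested. *Fbp1* was 56.7 ± 7.91 CPM in NT+/+ and 87.5 ± 11.4 CPM in NT-/- fasted mice (SD, n = 5 each; log2 fold change 0.63, SE 0.13, adjusted p = 0.162, edgeR). *Slc37a4* was 59.9 ± 11.6 and 85.4 ± 11.4 CPM (SD, n = 5 each; log2 fold change 0.51, SE 0.12, adjusted p = 0.193, edgeR). DESeq2 called both of these, at adjusted p of 0.00400 for *Fbp1* and 0.00910 for *Slc37a4*. *Fbp1* and *Slc37a4* had every fasted NT-/- mouse above every fasted NT+/+ mouse, as did 0.940% of all genes tested. Without the mouse of disagreeing labels their log2 fold changes were 0.61 and 0.43.

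The fasted groups of the other members overlapped. *G6pc* was 44.4 ± 20.1 CPM in NT+/+ and 81.9 ± 30.5 CPM in NT-/- fasted mice (SD, n = 5 each; log2 fold change 0.88, SE 0.36, adjusted p = 0.452, edgeR). *Pck1* was 319.9 ± 393.7 and 463.9 ± 268 CPM (SD, n = 5 each; log2 fold change 0.54, SE 0.60, adjusted p = 0.856, edgeR), a difference smaller than the spread of either group. Its value was 1.57 without replicate 3 of the fasted NT+/+ group and 0.13 without replicate 3 of the fasted NT-/- group. *Pcx* had a log2 fold change of 0.32 (SE 0.16, adjusted p = 0.573, edgeR) and *Pck2* of -0.16 (SE 0.09, adjusted p = 0.661, edgeR). The effect of fasting differed between genotypes for 0 of the 6 genes (edgeR's interaction term), beside 0% of all genes tested. By the same term 2 had an unadjusted p under 0.05, *Pck2* and *Slc37a4*, beside 2.71% of all genes. DESeq2 called 0 of the 6, beside 1 gene higher and 0 lower among 34533.

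The 12 enterocyte markers were shifted in the same comparison. Of these, 0 were called between fasted genotypes by edgeR, 2 had an unadjusted p under 0.05 and 1 was called by DESeq2. All 12 had a log2 fold change above 0 (median 0.43, beside 0.52 for the members and -0.01 over all genes tested). Per 1000 CPM of those markers, *Fbp1* was 2.81 ± 0.739 in NT+/+ and 3.11 ± 0.631 in NT-/- fasted mice (SD, n = 5 each) and *Slc37a4* 2.89 ± 0.462 and 3.01 ± 0.462 (SD, n = 5 each). All 6 genes overlapped between the fasted genotypes on that scale, where 0.0448% of all genes tested had every NT-/- mouse above every NT+/+ mouse.

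**Figure D4:**
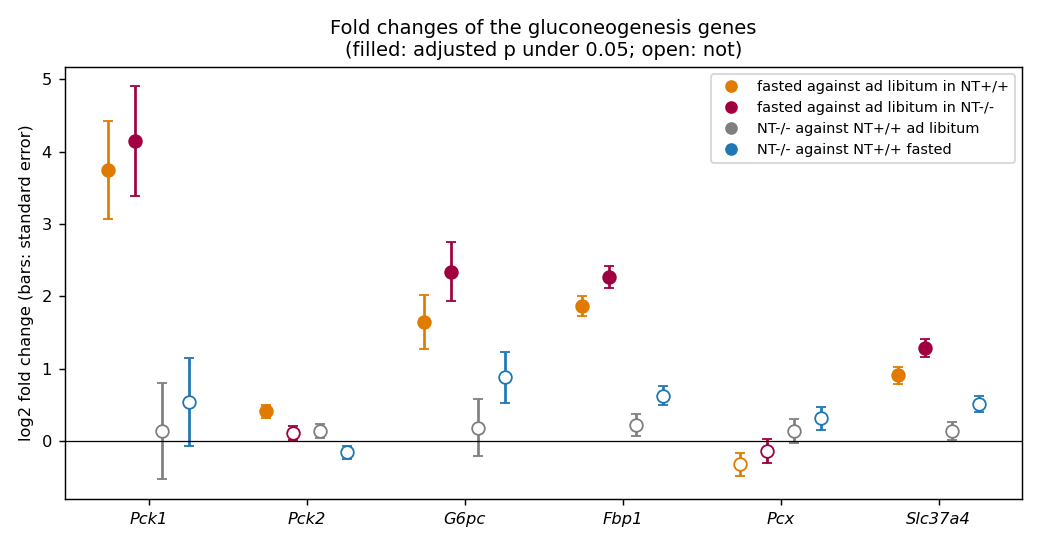
Log2 fold change of each gene in the fasting comparisons of both genotypes and in the genotype comparisons of both diets, with the standard error as bars and filled points at an adjusted p under 0.05 (edgeR). The filled points are the 5 fasting effects in NT+/+ mice and the 4 in NT-/- mice, and no genotype effect is filled.

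Fasted mice of the same replicate number could be set side by side, since their deviations from the group means correlated across genes. *G6pc* was higher in the NT-/- mouse of all 5 pairs, by 0.93 ± 0.19 on the log2 scale (SD, n = 5 pairs), as were *Fbp1* by 0.63 ± 0.26 and *Slc37a4* by 0.52 ± 0.29. Of all genes tested, 6.36% were higher in the NT-/- mouse of every pair. For *Pck1* the pairs split: the NT-/- mouse was 2.71, 1.67 and 2.28 higher on the log2 scale in pairs 1, 2 and 5, whereas pairs 3 and 4 differed by -0.08 and -0.17. Replicate 3 had the highest *Pck1* of its group in both genotypes. What the number stands for is not given in the sources used here. By the labels, both mice were female in pairs 1, 2 and 4 and male in pair 3. In pair 5 the NT-/- mouse has no sex label, and the NT+/+ mouse is the one with disagreeing genotype labels.

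Across the 19 mice, *Fbp1*, *G6pc*, *Pck1* and *Slc37a4* varied together. Pearson's r of log2(CPM + 1) ranged from 0.859 for *Pck1* and *G6pc* to 0.939 for *Fbp1* and *Slc37a4*, points that share the diet contrast. With each group's mean taken away, r was 0.685 for *Pck1* and *Slc37a4*, 0.602 for *G6pc* and *Slc37a4*, 0.584 for *G6pc* and *Fbp1*, 0.418 for *Pck1* and *G6pc*, 0.121 for *Fbp1* and *Slc37a4* and -0.02 for *Pck1* and *Fbp1*. *Pck2* had negative values with *Pck1*, *G6pc* and *Slc37a4* on that scale, at -0.36, -0.42 and -0.45, and with *Pcx* at -0.36. *Pcx* had 0.484 with *Pck1*, 0.501 with *Slc37a4*, 0.317 with *G6pc* and -0.133 with *Fbp1* there. With group means left in, its r with these genes was -0.06, -0.10, -0.07 and -0.30. How far the grouping of the 4 genes follows the diet contrast was not tested. These are descriptions over 19 mice.

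The genes most like each member over the 19 mice, by Pearson's r of log2(CPM + 1), were the following. For *Pck1* they were *2200002D01Rik* (r = 0.971), *Cyp27a1* (0.954), a sterol hydroxylase, and *Cers2* (0.952), a ceramide synthase. For *G6pc* they were *Khk* (0.967), the fructokinase, *Cyp2d26* (0.966) and *Cyp4v3* (0.963). For *Fbp1* they were *Cat* (0.988), the catalase of peroxisomes, *Acaa1b* (0.983), a peroxisomal thiolase of fatty acid oxidation, and *Gab1* (0.981). For *Slc37a4* they were *Oplah* (0.982), *Glud1* (0.978), glutamate dehydrogenase, and *Tmem41a* (0.977). The closest to *Pck2* were *Epn3* (0.883), *Mettl26* (0.859) and *Nkd1* (0.859), and to *Pcx* *Ptprh* (0.864), *Mdh1* (0.857), the cytosolic malate dehydrogenase, and *Gpd2* (0.848). With each group's mean taken away, these r were between 0.577 and 0.901.

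Enzymes that bring substrates in changed selectively. Of 20 tested genes of the reversible and substrate steps, 5 were called higher and 2 lower with fasting in NT+/+ mice, and 7 higher and 2 lower in NT-/- mice, with median log2 fold changes of 0.01 and 0.11. For this list and those that follow, the shares of all genes tested were 11.2% higher and 10.4% lower in NT+/+ mice. They were 12.5% and 12.6% in NT-/- mice. *Gpt*, an alanine aminotransferase, rose by 1.17 and 1.32, *Glud1* by 0.71 and 1.04, *Gpd1*, the cytosolic glycerol 3-phosphate dehydrogenase, by 0.80 and 0.94, and *Gk*, glycerol kinase, by 0.89 and 1.01 (log2 fold changes in NT+/+ and NT-/- mice). The genes that fell in both genotypes were *Ldha*, a lactate dehydrogenase subunit (-0.42 and -0.45), and *Pgam1*, a phosphoglycerate mutase (-0.37 and -0.43). *Mdh1* had values of -0.10 and 0.04 and *Got1*, the cytosolic aspartate aminotransferase, 0.00 and 0.23, and neither was called.

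Of the 2 paralogs tested, 1 was called higher in each genotype and 0 lower. *Fbp2*, the other fructose-1,6-bisphosphatase, rose from 132.5 ± 3.56 to 226 ± 8.64 CPM in NT+/+ mice (SD, n = 5 each) and from 140.8 ± 13.2 (SD, n = 4) to 269.96 ± 19.4 CPM (SD, n = 5) in NT-/- mice, by log2 fold changes of 0.77 (adjusted p = 1.38e-07, edgeR) and 0.94 (adjusted p = 2.4e-08, edgeR). *G6pc3*, the ubiquitous glucose-6-phosphatase, had values of 0.08 and 0.04 and was not called in either. *G6pc2* did not pass the filter on low counts.

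Glycolytic genes opposite the members showed no common direction. Of 13 tested, 2 were called higher and 1 lower in NT+/+ mice and 3 higher and 2 lower in NT-/- mice, with medians of -0.10 and 0.13. *Hk2*, a hexokinase opposite *G6pc*, fell by 0.63 and 0.77 on the log2 scale. *Pfkl*, the liver-type phosphofructokinase opposite *Fbp1*, rose by 0.38 and 0.35, and *Pfkfb4*, a bifunctional regulator of fructose 2,6-bisphosphate, by 0.63 and 0.87. *Pklr*, the liver-type pyruvate kinase, was called higher in NT-/- mice (0.41) and had 0.12 in NT+/+ mice. *Pfkm*, the muscle-type phosphofructokinase, had 0.32 and 0.15 and *Pkm*, the other pyruvate kinase gene, -0.10 and 0.13, and neither was called.

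Of 7 glucose and fructose carriers, 4 were called higher in NT+/+ mice and 5 in NT-/- mice, and 0 lower. *Slc2a5*, the fructose carrier GLUT5, rose by log2 fold changes of 1.24 and 1.64, *Slc5a1*, the sodium-glucose cotransporter SGLT1, by 0.50 and 0.70, and *Slc5a4b*, a relative of SGLT1, by 1.59 and 2.09. *Slc2a2*, the GLUT2 carrier through which glucose leaves the epithelium, rose in NT-/- mice (0.94, adjusted p = 0.0175, edgeR) and had 0.58 in NT+/+ mice (adjusted p = 0.121, edgeR).

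Of 22 tested transcription regulators, 8 were called higher and 3 lower in NT+/+ mice and 10 higher and 3 lower in NT-/- mice. *Creb3l3*, a membrane-bound factor of the fasting response, had the smallest p of the list in NT+/+ mice and rose from 66.1 ± 16.3 to 221 ± 51.8 CPM (SD, n = 5 each; log2 fold change 1.74, adjusted p = 3.41e-06, edgeR), and by 1.97 in NT-/- mice (adjusted p = 2.16e-06, edgeR). *Ppara*, the fatty acid receptor that drives fasting metabolism in liver, rose by 0.55 and 0.56, whereas *Ppard* fell by 1.08 and 1.28 on the log2 scale. *Foxo1*, the insulin-restrained factor, was called in NT-/- mice at 0.21 and had 0.15 in NT+/+ mice. *Ppargc1a* (0.11 and 0.13), *Hnf4a* (-0.21 and -0.23), *Cebpb* (0.36 and 0.38) and *Nr3c1*, the glucocorticoid receptor (-0.02 and 0.04), were not called in either genotype.

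Of 13 tested genes of glucagon, insulin and cAMP signaling, 2 were called higher and 1 lower in each genotype. These counts lie near the shares of all genes tested, 11.2% higher and 10.4% lower in NT+/+ mice and 12.5% and 12.6% in NT-/- mice. *Insr*, the insulin receptor, rose by 0.24 and 0.38 and *Irs2*, its adaptor, by 0.62 and 0.87, while *Pde4d*, a cAMP phosphodiesterase, fell by 0.51 and 0.50 on the log2 scale. Between fasted genotypes, 0 genes of these pathway lists were called by edgeR, where 9.14% of all genes had an unadjusted p under 0.05 and DESeq2 called 0.792%. Among the reversible and substrate steps 11 of 20 had an unadjusted p under 0.05 and DESeq2 called 2, and among the carriers 4 of 7 had one and DESeq2 called 1. Of the 2 paralogs 1 had one and DESeq2 called 1, of 13 glycolytic genes 2 had one and DESeq2 called 1, and DESeq2 called 0 regulators and 0 signaling genes, of which 1 of 22 and 2 of 13 had one.

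**Figure D5:**
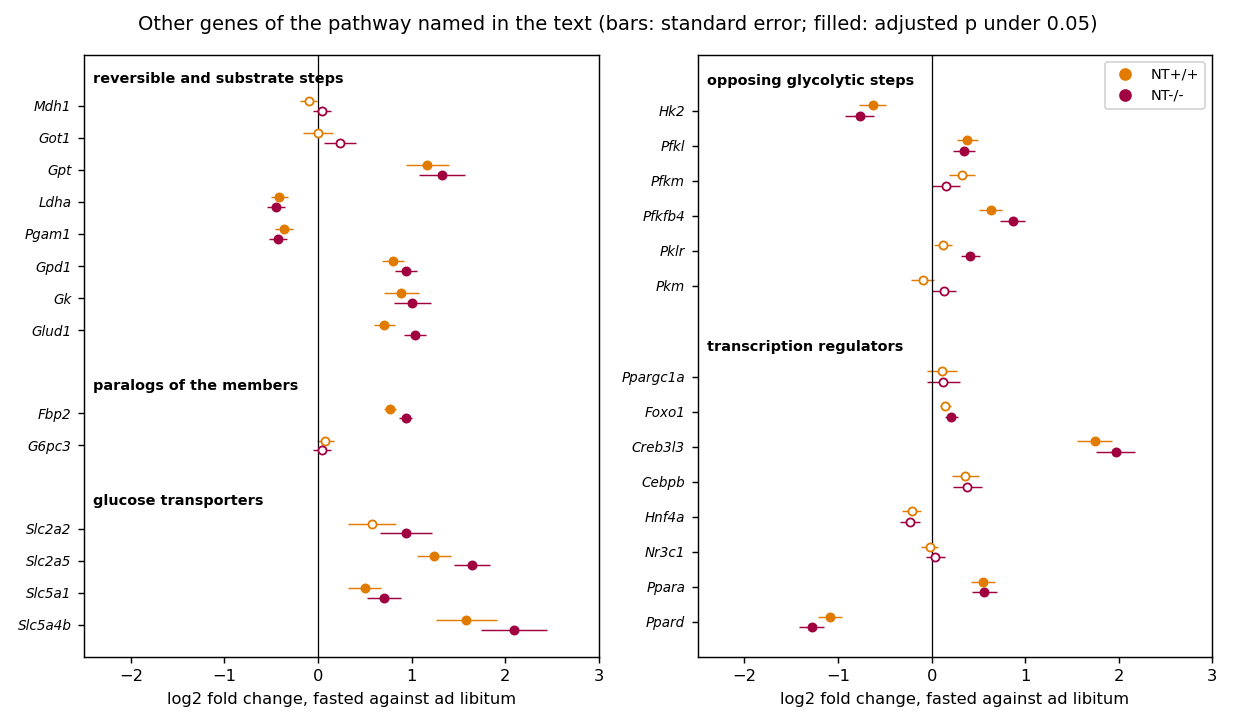
Log2 fold change with fasting of the other pathway genes named in the text, those of signaling aside, in NT+/+ and NT-/- mice, with the standard error as bars and filled points at an adjusted p under 0.05 (edgeR). *Creb3l3*, *Gpt*, *Fbp2* and *Slc2a5* are to the right of 0 in both genotypes, and *Ppard*, *Hk2* and *Ldha* to the left.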

How the data were processed

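Libraries were made from ribosomal RNA–depleted crypt RNA. Per the labels and methods, the authors trimmed single-end reads with Trimmomatic 0.39 and mapped them to Ensembl GRCm38 transcripts with RSEM (version and strand setting not given in the sources used here). The authors deposited RSEM expected counts per gene, which divide shared reads between genes, together with TPM and the effective length, another unit. Expected counts were rounded. Genes passing filterByExpr (17875) were scaled by TMM and fitted with edgeR 4.0.16 (R 4.3.3), 1 coefficient per group, 15 residual degrees of freedom, and the quasi-likelihood test with Benjamini-Hochberg adjustment over all genes tested. The SE was taken from the log2 fold change and its F statistic (size over root F). The fit was also run on simulated counts with the same spread for every gene and changes in fasted NT+/+ mice only. That run was read for fasting in NT+/+ mice, and does not cover the interaction or genes as variable as *Pck1*. Deposited TPM were used for levels between genes and pair ratios. Of 55487 genes, 55227 had a symbol in the GENCODE annotation; *Aldoa* matched 2 identifiers and was not used. Genes were named by role, by the 2 smallest p values per list and fasting comparison, and by likeness to a member. Some genes that this rule names are not reported here, although the counts over lists hold them. The members and lists were chosen with earlier results of these data known. Alternatives were another scaling, filters, DESeq2 1.42.0, limma 3.58.1 on log2(TPM + 1), exact permutation, sex, replicate blocks, the mouse of disagreeing labels, and each mouse left out. Same-numbered mice by file name deviated together from their group means in all 4 pairwise comparisons (r from 0.149 to 0.565); the title number did so for fasting in NT+/+ mice and for genotype in fasted mice. The scaling to enterocyte markers and the fit without the 2 shallowest mice were chosen after the data were seen.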

Additional observations from a re-analysis of the deposited data

Results flagged for a closer look

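Of 24 sets of values (6 genes in 4 groups), 2 held a mouse far from the others, where chance flags about 1 in 20 sets. *Pck1* was 920.2 CPM in replicate 3 of the fasted NT-/- group, and its gap to the next mouse was 0.711 of the group's range. *Slc37a4* was 105 CPM in the same mouse, with a gap of 0.791 of the range. The cause was not tested.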

How the results depend on the processing

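Counts of members called were 5 and 4 for fasting in NT+/+ and NT-/- mice and 0 for both genotype comparisons and the interaction. With each mouse left out in turn they ran from 5 to 6, 4 to 4 and 0 to 0. DESeq2 called 2 members between fasted genotypes, *Fbp1* and *Slc37a4*, whose adjusted p ranged from 0.004 to 0.79 and from 0.0091 to 0.80 over 12 alternatives. The replicate block, by title or file number, left the counts at 5, 4, 0, 0 and 0 and changed no member's call. It raised the count of all genes called lower with fasting in NT+/+ mice from 1852 to 2801 by file number. Values that changed sign were not called: *Pck1* between ad libitum genotypes (-0.053 to 0.37 with 1 mouse left out), *G6pc* there (-0.053 to 0.37), and the *Pck1* interaction (-0.0092 to 1.43, and -0.055 with the mouse of disagreeing labels grouped as NT-/-). The cause was not tested. The lowest count of a member in any mouse was 87.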
